A study of Mus musculus with 9 samples.

Results

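The genes described here carry fatty acids into the heart muscle cell, activate them, move them into mitochondria as carnitine esters and oxidise them there or in peroxisomes. They were chosen by name, as 38 gene symbols, and 37 of them labelled 1 probe set each in the authors' table of a mouse genome array. The symbol Cpt1b, the muscle carnitine palmitoyltransferase, stood only on a probe set shared with other gene names and was left out. The 37 probe sets were read among 45037 tested. Hearts came from 15-week-old male mice on an FVB background, 3 animals per genotype, each on an array of its own. WT mice were wild type, GlycoLo mice expressed a kinase-deficient PFK2 (phosphofructokinase 2, which makes and breaks the glycolysis activator fructose 2,6-bisphosphate) in the heart, and GlycoHi mice a phosphatase-deficient PFK2. The promoter that drives these transgenes is not given in the sources used here, and no other treatment separates the groups.

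Long-chain fatty acids are the main fuel of the adult heart. They cross the cell membrane with the help of CD36 and fatty acid transport proteins, are joined to coenzyme A, and pass the mitochondrial membranes through the carnitine shuttle, whose first step is blocked by malonyl-CoA. Beta-oxidation then shortens the chain by repeated cycles of dehydrogenation, hydration, dehydrogenation and thiolysis, and the electrons reach the respiratory chain through the electron transfer flavoprotein. Bonds of unsaturated fatty acids need auxiliary isomerases and reductases, while very long and branched chains are handled in peroxisomes. Many of these genes are known targets of the nuclear receptor PPAR alpha.

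Each array was represented by log2 values from the robust multiarray average (RMA) method, and all levels and differences below are on that log2 scale. The array medians lay between 4.76 and 4.80, and any 2 arrays correlated at 0.994 to 0.997 across probe sets. The probe set of Pfkfb1, a gene of PFK2, read 7.74 to 7.97 in WT, 14.34 to 14.37 in GlycoLo and 14.40 to 14.43 in GlycoHi, so every transgenic array stood apart from WT. Heart muscle markers were present in all groups: the 6 listed ones averaged 11.12 to 11.16 over the WT arrays, 10.94 to 11.05 over GlycoLo and 10.75 to 10.82 over GlycoHi. Groups were compared with limma across all probe sets, and "rose" and "fell" are used only for a Benjamini-Hochberg adjusted p under 0.05. The arrays are of whole hearts, so fewer cells of a type and less RNA per cell cannot be told apart.

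In GlycoLo hearts the fatty acid genes stood lower than in WT almost throughout, by small amounts, with Decr1 the only one to pass the test. Of the 37 members, 33 had a lower mean and 4 a higher one, with differences from -0.58 to 0.18 and a median of -0.14, where the median over every probe set tested was 0.0064. Lower means made up 89.2% of the members and 47.6% of all probe sets. Of the members 1 fell and 0 rose; over the array 0.0688% of probe sets fell and 0.0155% rose. An unadjusted p under 0.05 was reached by 14 lower and 0 higher members, where 5.07% and 4.41% of all probe sets reached it in those directions. In 21 members all 3 GlycoLo values lay below all 3 WT values, and in 1 all lay above, against 6.29% and 6.9% of all probe sets. Genes of 1 pathway share arrays and often vary together, so these shares are a description and carry no test.

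In GlycoHi hearts the same genes lay on both sides of WT, more of them below it, with Phyh the only one to pass. The mean was lower in 25 members and higher in 12. Lower means made up 67.6% of the members and 49.9% of all probe sets. Differences ran from -0.48 to 0.34, with a median of -0.06 (0.00024 over all probe sets). Without GlycoHi replicate 2 the median was -0.02, with 21 means lower and 16 higher, and an offset of 50 also gave -0.02; over the removal of each array in turn it ran from -0.09 to -0.02. Of the members 1 fell and 0 rose, where 1% of all probe sets fell and 1.08% rose. At an unadjusted p under 0.05 there were 7 lower and 2 higher members, against 7.07% and 7.45% of all probe sets. The groups did not overlap in 12 lower and 3 higher members, against 8.49% and 9.68% of all probe sets.

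Set directly against each other, the transgenic lines differed in 5 members. Slc25a20, Cpt2, Decr1 and Pex11a were higher in GlycoHi than in GlycoLo, and Phyh was lower. Of all probe sets 0.957% were higher and 0.755% lower by the same test. The median over the members was 0.12, with 24 means higher in GlycoHi and 13 lower, and 15 members did not overlap in the higher direction and 5 in the lower, against 8.76% and 8.01% of all probe sets. An unadjusted p under 0.05 held for 14 higher and 2 lower members, against 6.41% and 6.47% of all probe sets. An F-test over the 3 genotypes called the same 5 members, where it called 2.08% of all probe sets. The comparisons with WT share their WT arrays and the lines share theirs with them, so the 3 sets of values are not independent of each other.

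**Figure D1:**
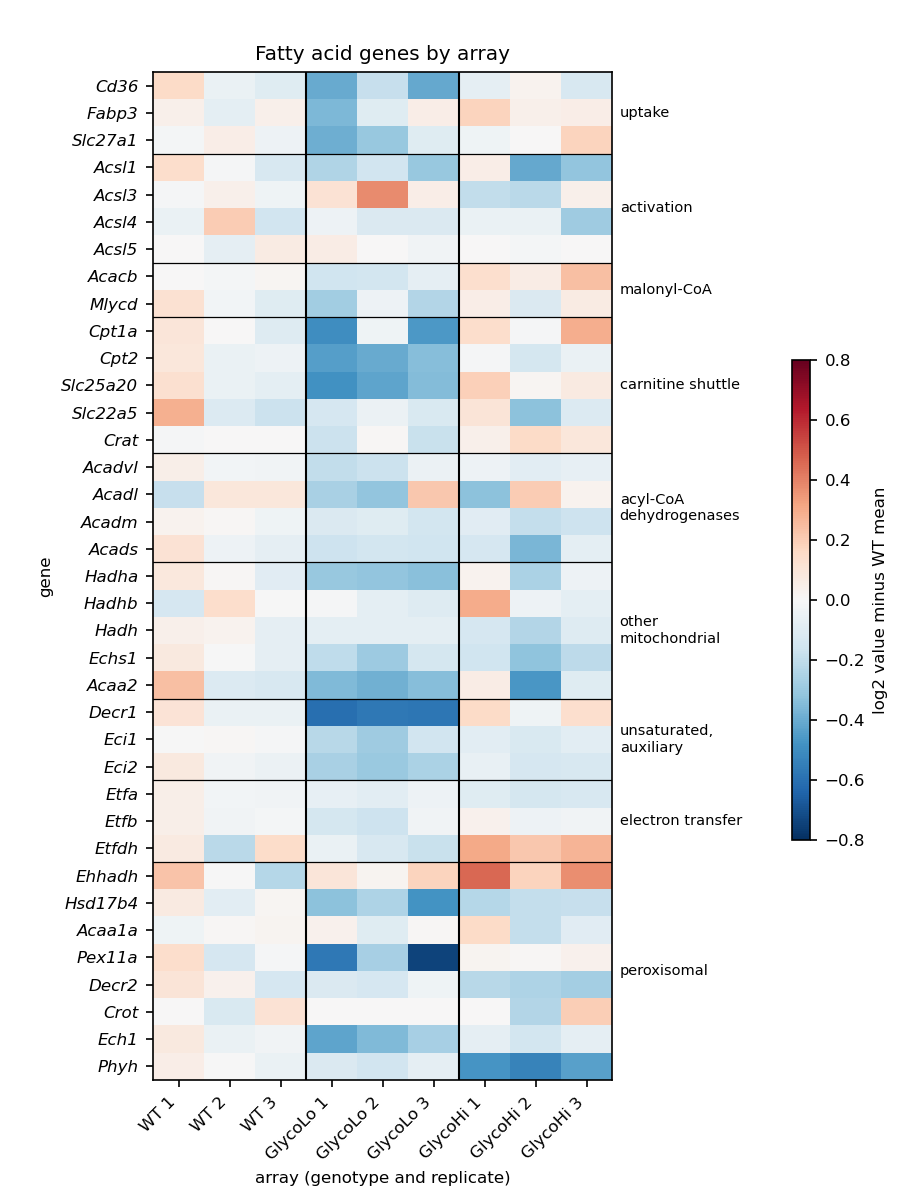
Each cell is the log2 value of a gene (rows, grouped by role) on 1 array (columns) minus the mean of the 3 WT arrays, blue for lower and red for higher. The GlycoLo columns are blue in most rows, deepest for Decr1 and Pex11a, and the GlycoHi columns are mixed, with the Phyh row blue on all 3 arrays.

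Decr1 encodes the mitochondrial dienoyl-CoA reductase, which removes a double bond that the main cycle of beta-oxidation cannot process. It read 9.80, 9.64 and 9.64 in the WT hearts, 9.09, 9.12 and 9.11 in GlycoLo, and 9.85, 9.66 and 9.83 in GlycoHi. Every GlycoLo heart lay below every other heart, and the WT and GlycoHi values overlapped. The gene fell in GlycoLo against WT by 0.58 ± 0.07 on the log2 scale (SE, limma adjusted p = 0.020), which is 33.3% lower on the linear scale. Dropping any 1 of the 6 WT and GlycoLo arrays took that call away, with adjusted p from 0.0598 to 0.106 and differences from -0.61 to -0.53. GlycoHi stood 0.67 ± 0.07 above GlycoLo (adjusted p = 0.00102), and this difference passed under all 18 alternative settings (adjusted p 1.7e-05 to 0.00784). The difference between GlycoHi and WT was 0.09 ± 0.07 (adjusted p = 0.664).

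Slc25a20, the carnitine-acylcarnitine carrier of the inner mitochondrial membrane, had WT values of 9.70, 9.52 and 9.50. Its GlycoLo values were 9.09, 9.15 and 9.23, and its GlycoHi values 9.76, 9.59 and 9.65. Again the GlycoLo hearts lay below all others while the other groups overlapped. GlycoHi was higher than GlycoLo by 0.51 ± 0.08 (adjusted p = 0.00841), or 42.5%, and passed under all 18 alternatives (adjusted p 0.000378 to 0.042). Against WT the GlycoLo difference was -0.42 ± 0.08 and did not pass (adjusted p = 0.106). Its probe set is of the kind that can match more than 1 transcript.

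Cpt2, which turns acylcarnitine back into acyl-CoA inside mitochondria, was also lowest in GlycoLo. The WT hearts read 11.18, 11.04 and 11.05, the GlycoLo hearts 10.65, 10.69 and 10.75, and the GlycoHi hearts 11.08, 10.95 and 11.04. No GlycoLo value reached the lowest of the other 6. The GlycoHi level exceeded that of GlycoLo by 0.33 ± 0.07 (adjusted p = 0.0427), and the GlycoLo difference from WT was -0.39 ± 0.07 (adjusted p = 0.0858, not passed). Dropping 1 array took the call between the lines away in every case but that of WT replicate 1 (highest adjusted p = 0.139).

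Pex11a encodes a peroxisomal membrane protein that takes part in peroxisome division. Its values were 7.55, 7.28 and 7.40 in WT, 6.84, 7.15 and 6.67 in GlycoLo, and 7.43, 7.42 and 7.44 in GlycoHi. The GlycoLo hearts were low and the most widely spread (SD 0.24), and the GlycoHi hearts the most alike (SD 0.01). GlycoHi was higher than GlycoLo by 0.55 ± 0.11 (adjusted p = 0.0396), and GlycoLo differed from WT by -0.52 ± 0.11 (adjusted p = 0.151, not passed). Only the removal of WT replicate 1 or GlycoLo replicate 2 left the first of these calls standing; each of the other 7 arrays took it away (highest adjusted p = 0.133), as did an offset of 50 (0.0526).

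Phyh, the peroxisomal phytanoyl-CoA hydroxylase that starts the alpha-oxidation of branched phytanic acid, went the other way. It read 11.56, 11.50 and 11.46 in WT, 11.39, 11.35 and 11.44 in GlycoLo, and 11.04, 10.98 and 11.07 in GlycoHi. The 3 groups did not overlap, and GlycoHi was lowest. Phyh fell in GlycoHi against WT by 0.48 ± 0.06 (adjusted p = 0.00288), or 28.3%, and passed under all 18 alternatives (adjusted p 8.66e-06 to 0.0173). It was also lower in GlycoHi than in GlycoLo, by a log2 difference of -0.37 ± 0.06 (adjusted p = 0.0159), a call that went when GlycoLo replicate 1, GlycoLo replicate 3 or GlycoHi replicate 2 was dropped (highest adjusted p = 0.068). GlycoLo differed from WT by -0.11 ± 0.06 (adjusted p = 0.610).

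**Figure D2:**
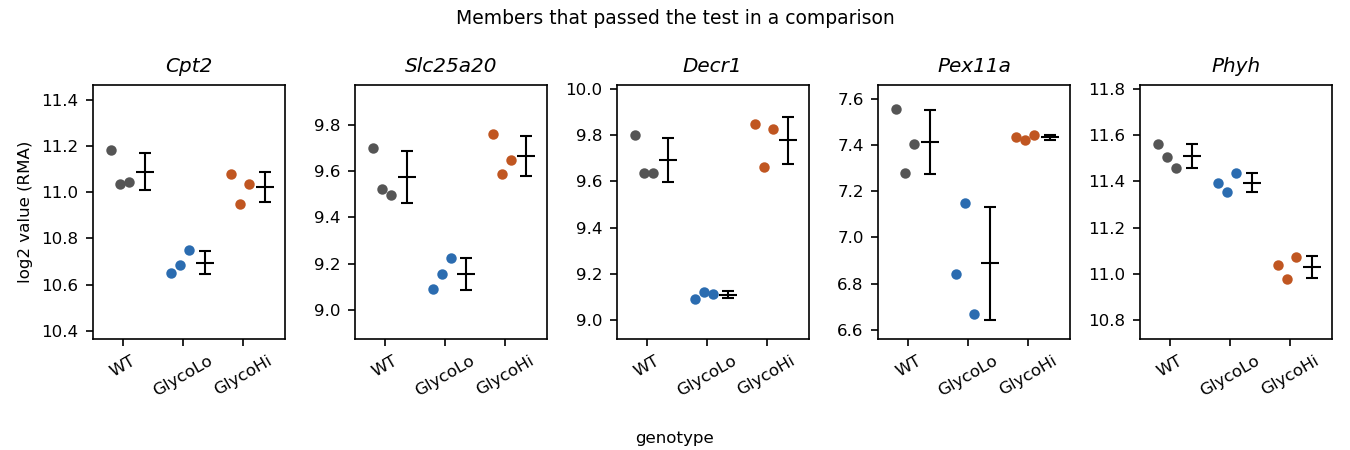
Log2 values of the 5 members that passed in a comparison, with 1 point per array and the mean ± SD of the 3 arrays beside each group; every panel spans the same range of log2 units. In Cpt2, Slc25a20, Decr1 and Pex11a the GlycoLo points lie below all others, and in Phyh the GlycoHi points do.

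The promoters of these genes are shown to let the sequence of members that moved together be compared. RefSeq promoter windows of build GRCm38.p6 were matched by symbol for 33 of the 37 members, in 36 windows; Decr1, Crat, Acaa2 and Hsd17b4 were not matched. The 250 bases before the start of transcription are printed, on the gene's own strand. Capitals mark CCGGAAGT or its reverse complement ACTTCCGG, a core bound by ETS-family factors, a family that includes GABP, known for its part in nuclear genes of mitochondrial proteins.
Cpt2, chr4:107923590-107923839, minus strand: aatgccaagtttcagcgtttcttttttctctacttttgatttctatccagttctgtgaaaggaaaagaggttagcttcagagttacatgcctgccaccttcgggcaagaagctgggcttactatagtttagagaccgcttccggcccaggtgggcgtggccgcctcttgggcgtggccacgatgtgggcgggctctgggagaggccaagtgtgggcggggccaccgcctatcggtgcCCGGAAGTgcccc
Slc25a20, chr9:108661886-108662135, plus strand: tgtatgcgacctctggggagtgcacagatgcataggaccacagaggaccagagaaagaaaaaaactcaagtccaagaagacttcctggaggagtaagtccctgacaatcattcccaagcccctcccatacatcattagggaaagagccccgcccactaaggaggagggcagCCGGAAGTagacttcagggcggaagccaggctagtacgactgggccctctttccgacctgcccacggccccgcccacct
Pex11a, chr7:79743132-79743381, minus strand: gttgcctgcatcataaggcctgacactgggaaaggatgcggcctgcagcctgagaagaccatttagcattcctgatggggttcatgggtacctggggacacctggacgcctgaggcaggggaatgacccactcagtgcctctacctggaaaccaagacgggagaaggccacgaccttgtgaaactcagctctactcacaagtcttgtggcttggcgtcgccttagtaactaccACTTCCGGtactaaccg
Phyh, chr2:4918746-4918995, plus strand: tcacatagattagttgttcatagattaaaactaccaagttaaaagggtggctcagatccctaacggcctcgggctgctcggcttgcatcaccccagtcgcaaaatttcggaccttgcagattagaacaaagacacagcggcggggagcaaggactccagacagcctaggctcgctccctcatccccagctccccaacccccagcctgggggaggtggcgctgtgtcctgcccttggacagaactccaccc
The core began 13 bases before the start in Cpt2, 79 in Slc25a20 and, on the opposite strand, 17 in Pex11a, and was not in the Phyh window. Among the members' windows it occurred in these 3 of 36 (8.33%), against 945 of all 32851 windows (2.88%). It was chosen after these sequences had been read, so the shares are a description. The members' windows were also richer in G and C, with a median of 59.6% against 52.4% over all windows, and the part of this in the shares was not tested. The nuclear receptor half-site AGGTCA or its complement TGACCT, with no overlap with the ETS core, was in 5 member windows (13.9%, against 14% of all), those of Cd36, Cpt1a, Acadm, Acadvl and Echs1. The PPAR-type direct repeat of AGGNCA with 1 base between the copies can contain that half-site, and the ERR-type site TCAAGGTCA always does. Both were in 0 of 36 windows on either strand, against 0.338% and 0.387% of all. At shares this low, 0 of 36 was the likely outcome for any genes. Only 250 bases were searched, so the absence of such sites from these genes is not shown.

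Among the uptake genes, all 3 means were lower in GlycoLo than in WT and 0 passed limma's test (2 at an unadjusted p under 0.05). Cd36, the membrane fatty acid translocase, read 10.72, 10.51 and 10.47 in WT, 10.16, 10.38 and 10.16 in GlycoLo, and 10.50, 10.60 and 10.44 in GlycoHi. The GlycoLo hearts lay below the others, at -0.33 ± 0.09 against WT (adjusted p = 0.257), and GlycoHi differed from WT by -0.06 ± 0.09. Slc27a1, a fatty acid transport protein, read 7.85, 7.93 and 7.83 in WT, 7.48, 7.57 and 7.78 in GlycoLo, and 7.84, 7.87 and 8.05 in GlycoHi. GlycoLo was below both other groups for this gene as well, by -0.26 ± 0.09 against WT (adjusted p = 0.372), with GlycoHi 0.31 ± 0.09 above GlycoLo (adjusted p = 0.139). Fabp3, the fatty acid binding protein of the heart muscle cytosol, read 5.80, 5.68 and 5.80 in WT, 5.40, 5.67 and 5.82 in GlycoLo, and 5.94, 5.80 and 5.82 in GlycoHi, and all groups overlapped. Other probe sets of Fabp3 were not named in the table used here, so this low reading is that of 1 probe set.

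Of the 4 genes of activation to acyl-CoA, 2 had lower and 2 higher means in GlycoLo, and 4 had lower means in GlycoHi (median -0.13), with 0 passed by limma's test and 0 at an unadjusted p under 0.05 in either line. Acsl1, the main long-chain acyl-CoA synthetase of the heart, read 10.07, 9.92 and 9.80 in WT, 9.69, 9.78 and 9.63 in GlycoLo, and 9.98, 9.52 and 9.61 in GlycoHi. Both lines stood 0.23 ± 0.12 below WT on the log2 scale, with adjusted p of 0.576 in GlycoLo and 0.414 in GlycoHi, and the GlycoHi hearts overlapped WT. Acsl3, another synthetase, read 2.82, 2.87 and 2.79 in WT, 2.94, 3.20 and 2.88 in GlycoLo, and 2.63, 2.61 and 2.87 in GlycoHi, all near the bottom of the scale. It was the 1 member whose GlycoLo values lay above all WT values (0.18 ± 0.10, adjusted p = 0.604). Acsl5 differed from WT by 0.01 ± 0.06 in GlycoLo and -0.0034 ± 0.06 in GlycoHi, and Acsl4 by -0.09 ± 0.10 and -0.13 ± 0.10.

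Malonyl-CoA, the brake on the carnitine shuttle, is made at mitochondria by the product of Acacb and broken down by that of Mlycd. Acacb read 9.04, 9.02 and 9.05 in WT, 8.87, 8.89 and 8.96 in GlycoLo, and 9.17, 9.09 and 9.27 in GlycoHi. The 3 groups did not overlap, with GlycoLo lowest and GlycoHi highest, yet neither line passed against WT (-0.13 ± 0.07 and 0.14 ± 0.07, adjusted p = 0.589 and 0.356). The difference between the lines was 0.27 ± 0.07 (adjusted p = 0.0806, not passed). Mlycd read 8.53, 8.39 and 8.31 in WT, 8.13, 8.37 and 8.17 in GlycoLo, and 8.47, 8.29 and 8.48 in GlycoHi, with all groups overlapping.

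In the carnitine shuttle all 5 measured members had lower means in GlycoLo, with a median difference of -0.33, and 3 had higher means in GlycoHi, where the median was 0.09. Between the lines 2 of the 5, Cpt2 and Slc25a20, were higher in GlycoHi, where 0.957% of all probe sets were. Cpt1a, the liver form of carnitine palmitoyltransferase 1, read 8.01, 7.92 and 7.82 in WT, 7.42, 7.89 and 7.46 in GlycoLo, and 8.06, 7.91 and 8.21 in GlycoHi. GlycoLo replicate 2 lay within the WT range and the other GlycoLo hearts below it. The differences from WT were -0.33 ± 0.12 in GlycoLo (adjusted p = 0.434) and 0.14 ± 0.12 in GlycoHi (adjusted p = 0.671), and GlycoHi exceeded GlycoLo by 0.47 ± 0.12 (adjusted p = 0.108). Without GlycoLo replicate 2 that last difference was 0.62 ± 0.10 and passed (adjusted p = 0.021). Crat, carnitine acetyltransferase, read 9.49, 9.50 and 9.50 in WT, 9.33, 9.51 and 9.32 in GlycoLo, and 9.54, 9.65 and 9.59 in GlycoHi, where it lay above the other groups by less than the test asks (0.10 ± 0.07 against WT, adjusted p = 0.589). The probe set of Crat is of a kind that can match other transcripts too. Slc22a5, the carnitine transporter of the cell membrane, differed from WT by -0.10 ± 0.13 in GlycoLo and -0.11 ± 0.13 in GlycoHi.

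**Figure D3:**
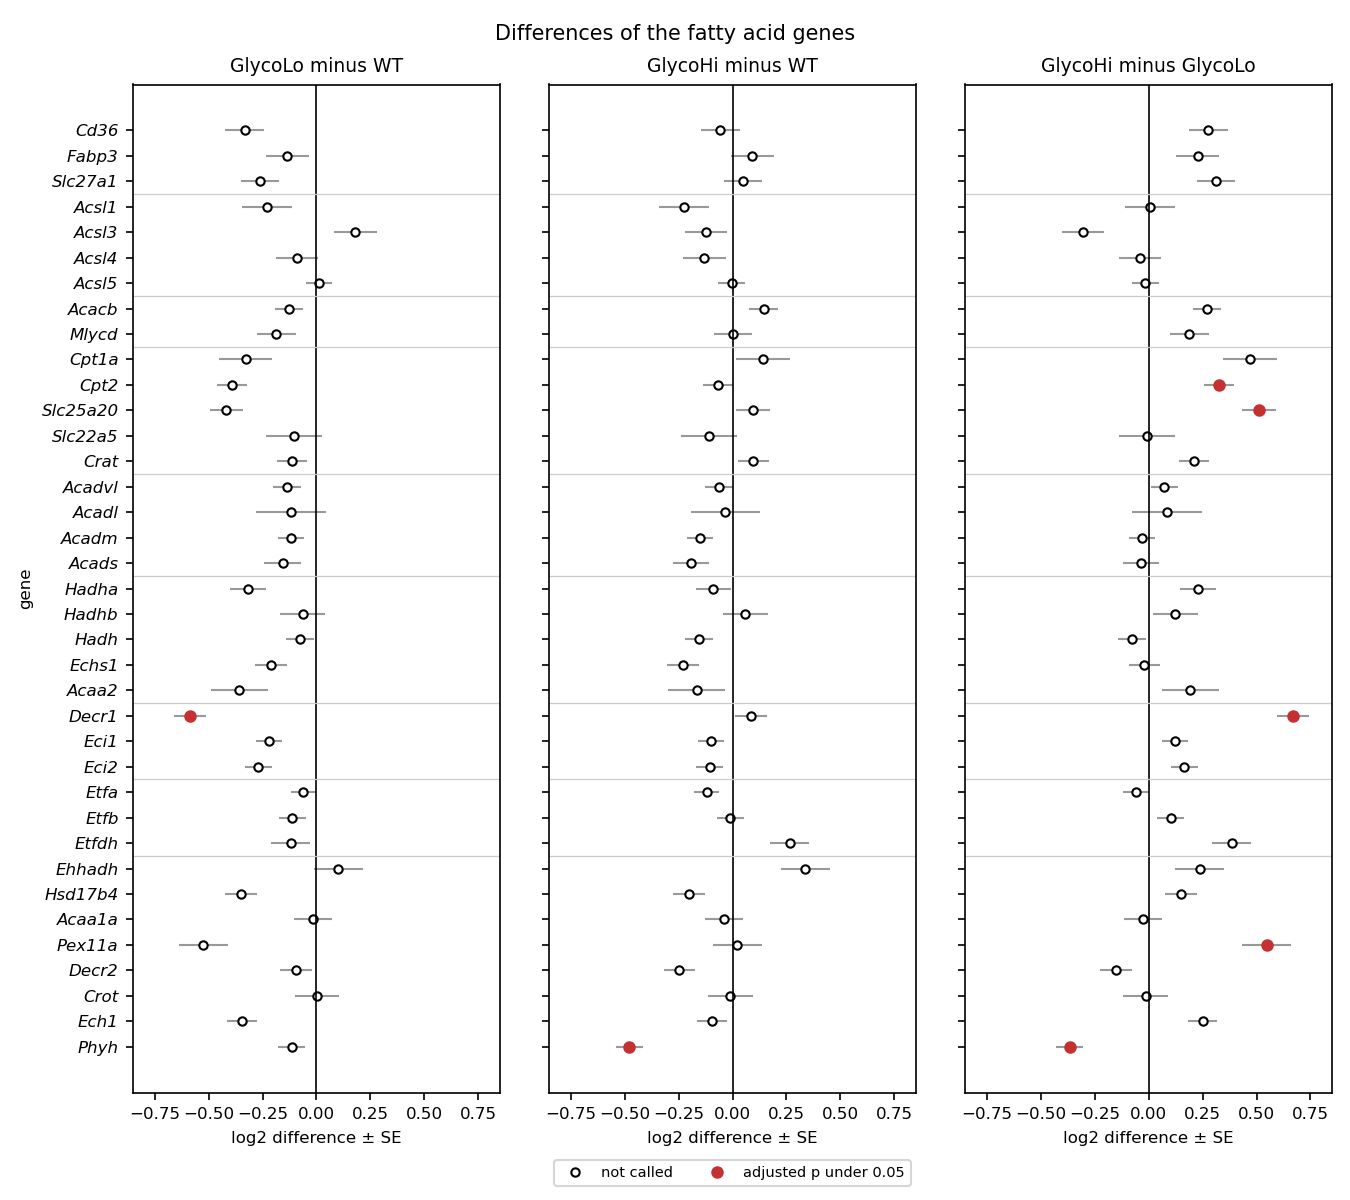
Log2 difference ± SE of each member (rows, in order of role) in the 3 comparisons, from the limma model over all 9 arrays; filled red points passed at an adjusted p under 0.05. The GlycoLo panel lies mostly left of 0 with Decr1 farthest, the GlycoHi panel lies on both sides with Phyh farthest left, and the third panel shows the 5 members that differed between the lines.

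The acyl-CoA dehydrogenases, which take the first step of each cycle for chains of different lengths, had lower means in both lines, and 0 of 4 passed limma's test in any comparison (2 lower in GlycoHi and 0 in GlycoLo at an unadjusted p under 0.05). Acadm, for medium chains, read 13.44, 13.42 and 13.37 in WT, 13.29, 13.32 and 13.26 in GlycoLo, and 13.32, 13.22 and 13.24 in GlycoHi. Both lines lay below WT by small amounts, -0.12 ± 0.06 in GlycoLo (adjusted p = 0.579) and -0.15 ± 0.06 in GlycoHi (adjusted p = 0.282). Acadvl, for very long chains, read 12.47, 12.39 and 12.39 in WT, 12.22, 12.25 and 12.37 in GlycoLo, and 12.37, 12.33 and 12.35 in GlycoHi. Its GlycoLo difference was -0.14 ± 0.06 (adjusted p = 0.547). Acads, for short chains, differed by -0.16 ± 0.08 and -0.19 ± 0.08. The listed Acadl probe set averaged 3.36 over all arrays, near the bottom of the scale, and differed from WT by -0.12 ± 0.16 in GlycoLo and -0.03 ± 0.16 in GlycoHi.

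The later steps of mitochondrial beta-oxidation were likewise lower in GlycoLo, with 5 of 5 means below WT and 0 passed by limma's test (3 at an unadjusted p under 0.05). Hadha, the alpha subunit of the trifunctional protein, read 11.45, 11.38 and 11.28 in WT, 11.07, 11.05 and 11.04 in GlycoLo, and 11.40, 11.12 and 11.33 in GlycoHi. The GlycoLo hearts lay below all others (-0.32 ± 0.08 against WT, adjusted p = 0.232), and GlycoHi replicate 2 was the lowest of its group. Echs1, the short-chain enoyl-CoA hydratase, read 11.76, 11.68 and 11.61 in WT, 11.48, 11.39 and 11.54 in GlycoLo, and 11.52, 11.36 and 11.47 in GlycoHi. For Echs1 both lines lay wholly below WT, at -0.21 ± 0.07 (adjusted p = 0.388) and -0.23 ± 0.07 (adjusted p = 0.161). Acaa2, the mitochondrial thiolase, differed by -0.36 ± 0.13 in GlycoLo and -0.17 ± 0.13 in GlycoHi. Hadh, the hydroxyacyl-CoA dehydrogenase for shorter chains, differed by -0.08 ± 0.06 and -0.16 ± 0.06, and Hadhb, the beta subunit of the trifunctional protein, by -0.06 ± 0.10 and 0.06 ± 0.10. The 1 listed probe set of Hadhb averaged 6.18 over all arrays, low on the scale, and others were not named in the table used here.

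Of the auxiliary enzymes for unsaturated fatty acids, Decr1 has been described. Eci2, an enoyl-CoA isomerase, read 10.26, 10.16 and 10.14 in WT, 9.93, 9.89 and 9.93 in GlycoLo, and 10.13, 10.05 and 10.06 in GlycoHi. The groups did not overlap, with GlycoLo lowest and GlycoHi between, and the GlycoLo difference of -0.27 ± 0.06 did not pass (adjusted p = 0.177). Eci1, the other enoyl-CoA isomerase of this role, had the same order, at -0.22 ± 0.06 in GlycoLo and -0.10 ± 0.06 in GlycoHi. All 3 members of this role had GlycoLo values below every WT value and every GlycoHi value. Over all probe sets, the GlycoLo values lay wholly below WT in 6.29% and wholly below GlycoHi in 8.76%.

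Of the 3 members that carry electrons from the dehydrogenases, 0 passed limma's test in any comparison (0 in GlycoLo and 1 in GlycoHi at an unadjusted p under 0.05). Etfb, a subunit of the electron transfer flavoprotein, read 12.23, 12.15 and 12.16 in WT, 12.04, 12.02 and 12.15 in GlycoLo, and 12.22, 12.14 and 12.16 in GlycoHi, with GlycoLo replicate 3 among the other groups. Etfa, its partner subunit, differed by -0.06 ± 0.06 in GlycoLo and -0.12 ± 0.06 in GlycoHi. Etfdh, which passes the electrons to ubiquinone, read 3.34, 3.05 and 3.42 in WT, 3.22, 3.14 and 3.09 in GlycoLo, and 3.58, 3.49 and 3.55 in GlycoHi. GlycoHi lay above both other groups, by 0.38 ± 0.09 against GlycoLo (adjusted p = 0.0739, not passed). That probe set reads near the bottom of the scale, and without WT replicate 2, which enters the spread, its adjusted p was 0.0274.

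In the peroxisomal role Phyh fell in GlycoHi and 7 of 8 members did not pass against WT in either line. Ech1, a dienoyl-CoA isomerase found in peroxisomes and mitochondria, read 13.00, 12.87 and 12.89 in WT, 12.50, 12.57 and 12.66 in GlycoLo, and 12.85, 12.78 and 12.85 in GlycoHi. The groups did not overlap and GlycoLo was lowest, at -0.35 ± 0.07 against WT (adjusted p = 0.124) and with GlycoHi 0.25 ± 0.07 above it (adjusted p = 0.121). Hsd17b4, the D-bifunctional protein of peroxisomal beta-oxidation, differed by -0.35 ± 0.07 in GlycoLo (adjusted p = 0.151) and -0.20 ± 0.07 in GlycoHi. Ehhadh, the L-bifunctional protein, had higher means in both lines, by 0.10 ± 0.11 and 0.34 ± 0.11 (adjusted p = 0.821 and 0.190). Decr2, the peroxisomal dienoyl-CoA reductase, differed by -0.10 ± 0.07 in GlycoLo and -0.25 ± 0.07 in GlycoHi. Crot, the carnitine octanoyltransferase, differed by 0.0035 ± 0.10 and -0.01 ± 0.10. Acaa1a, a peroxisomal thiolase, differed by -0.02 ± 0.09 and -0.04 ± 0.09, and its probe set may also read the closely related Acaa1b. The probe set of Hsd17b4 is likewise of a kind that can match other transcripts.

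Within a group, some hearts stood high or low in many members at once. Their median deviation from the WT mean was 0.07, -0.02 and -0.04 on the 3 WT arrays, -0.19, -0.15 and -0.14 on the GlycoLo arrays, and 0.0015, -0.12 and -0.06 on the GlycoHi arrays. All GlycoLo arrays lay below all others by this measure, and GlycoHi replicate 2 came nearest to them. WT replicate 1 gave the highest of the 3 WT values in 25 of 37 members, where it did so in 37.9% of all probe sets. GlycoHi replicate 1 gave the highest GlycoHi value in 23 of 37, against 34.9% of all probe sets. GlycoHi replicate 2 gave the lowest GlycoHi value in 29 of 37, against 32.2% of all probe sets. Without WT replicate 1 the median GlycoLo difference was -0.13, and over the removal of each array in turn it ran from -0.18 to -0.12. The SD within a group had a median of 0.10 over the members and 0.11 over all probe sets.

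**Figure D4:**
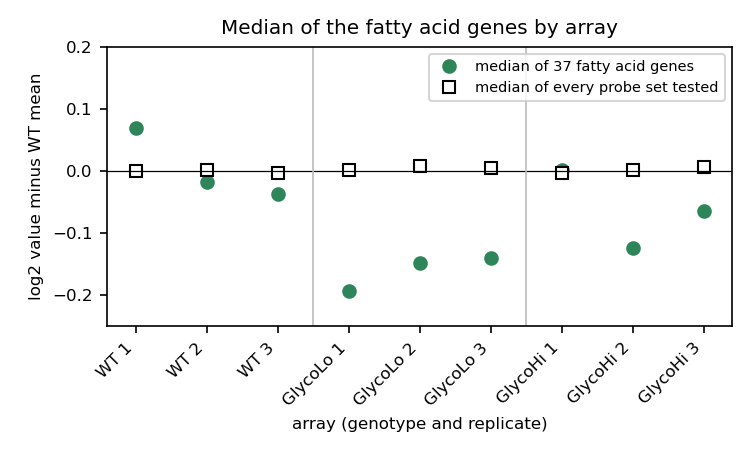
Median over the 37 members (green points) and over every probe set tested (open squares) of the log2 value minus the WT mean, for each array. The squares stay at 0, and the green points of the 3 GlycoLo arrays, from -0.19 to -0.14, lie below those of all other arrays.

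Other genes of fatty acid handling were listed by function. Of 36 measured, 0 passed limma's test in GlycoLo (12 lower and 0 higher at an unadjusted p under 0.05, 25 means lower, median -0.07). In GlycoHi 1 of 36 fell (24 means lower, median -0.08). Over all probe sets, 5.07% were lower at that unadjusted p in GlycoLo and 1% fell in GlycoHi. The gene that fell was Lpl, the lipoprotein lipase that frees fatty acids at the capillary wall, by 0.32 ± 0.07 (adjusted p = 0.0373). Its GlycoLo difference was about as large, -0.31 ± 0.07, and did not pass (adjusted p = 0.150). Dropping 1 array took the Lpl call away in every case but that of GlycoHi replicate 1 (highest adjusted p = 0.126), and so did a common median for all arrays. Between the lines Acad11, an acyl-CoA dehydrogenase, was higher in GlycoHi by 0.65 ± 0.12 (adjusted p = 0.0188) and Acsl6, an acyl-CoA synthetase, lower by a log2 difference of -0.46 ± 0.09 (adjusted p = 0.0323). The Acad11 call went when replicate 1 or 3 of either line was dropped (highest adjusted p = 0.0901). The Acsl6 call stood only when WT replicate 1, WT replicate 3 or GlycoHi replicate 2 was the array dropped (highest adjusted p = 0.131).

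Of 21 regulators of these genes, 0 passed limma's test in GlycoLo (2 lower and 2 higher at an unadjusted p under 0.05, median 0.04). Ppara, which encodes PPAR alpha, differed from WT by -0.23 ± 0.11 in GlycoLo (adjusted p = 0.562) and -0.17 ± 0.11 in GlycoHi (adjusted p = 0.547). Its coactivator gene Ppargc1a differed by -0.14 ± 0.25 and -0.24 ± 0.25, and Esrra, an estrogen-related receptor, by 0.04 ± 0.06 and 0.11 ± 0.06. In GlycoHi 2 of 21 rose, where 1.08% of all probe sets rose. Esrrg, the related receptor that is abundant in heart, read 8.97, 8.92 and 8.92 in WT, 9.01, 8.89 and 8.92 in GlycoLo, and 9.30, 9.37 and 9.30 in GlycoHi. It was higher in GlycoHi than in every other heart, by 0.39 ± 0.06 against WT (adjusted p = 0.00956) and 0.38 ± 0.06 against GlycoLo (adjusted p = 0.0114); the second was at adjusted p = 0.0503 without GlycoLo replicate 3. Prkaa2, a catalytic subunit of AMP-activated protein kinase, rose in GlycoHi by 0.45 ± 0.09 (adjusted p = 0.0329) and differed in GlycoLo by 0.47 ± 0.09 (adjusted p = 0.114). Only the removal of GlycoLo replicate 1 or 2 left the Prkaa2 call standing (highest adjusted p = 0.120).

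Other PPAR alpha targets, listed with earlier results of these data known, had a median of -0.35 in GlycoLo, where that of the members was -0.14. The choice of the list can set this order and its counts, so they are a description. Of 22 measured, 3 fell and 19 did not pass, where 0.0688% of all probe sets fell. Acot1, an acyl-CoA thioesterase, fell by 1.14 ± 0.11 (adjusted p = 0.0021), and Cidea, a lipid droplet protein, fell by 0.74 ± 0.10 (adjusted p = 0.020). In GlycoHi 2 of 22 fell, with a median of -0.17, where 1% of all probe sets fell. Ces1d, which encodes a carboxylesterase, fell in both lines, with differences of -0.70 ± 0.10 in GlycoLo (adjusted p = 0.0393) and -2.12 ± 0.10 in GlycoHi (adjusted p = 1.74e-06). Retsat, the retinol saturase, fell in GlycoHi, with a difference of -0.63 ± 0.13 (adjusted p = 0.0306). Between the lines 4 were higher in GlycoHi and 1, Ces1d, was lower (-1.43 ± 0.10), against 0.957% and 0.755% of all probe sets. With an offset of 50, Acot1 stood at -0.69 in GlycoLo against WT and 0.42 between the lines, still called. The higher ones were Acot2, the mitochondrial thioesterase, by 1.14 ± 0.15 (adjusted p = 0.00284), Acot1 by 0.73 ± 0.11 (adjusted p = 0.0058), Ucp2, a carrier of the inner mitochondrial membrane, by 0.62 ± 0.11 (adjusted p = 0.019) and Plin5, a coat protein of lipid droplets, by 0.54 ± 0.10 (adjusted p = 0.0216). Several of these calls went when 1 array was dropped. For Cidea those arrays were WT replicates 1 and 3 and the 3 GlycoLo arrays (highest adjusted p = 0.114), and for Ces1d in GlycoLo all but GlycoHi replicates 1 and 3 (0.179). For Retsat they were the 3 WT arrays, replicate 2 of either line and GlycoHi replicate 3 (0.113). For Ucp2 they were GlycoLo replicates 1 and 3 (0.0784), and for Plin5 these and the 3 GlycoHi arrays (0.0947).

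**Figure D5:**
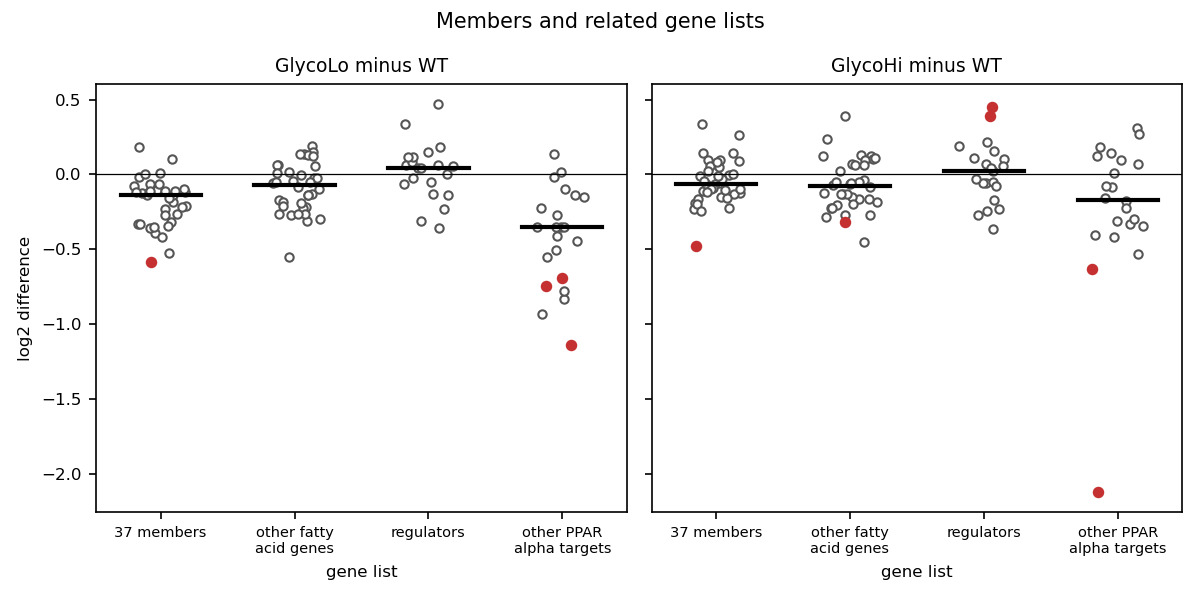
Log2 difference from WT of each gene (points) in the 37 members and 3 related lists, with black bars at the medians and red points for an adjusted p under 0.05. In GlycoLo the medians are -0.14 for the members, -0.07 for other fatty acid genes, 0.04 for regulators and -0.35 for other PPAR alpha targets; in GlycoHi they are -0.06, -0.08, 0.02 and -0.17.

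Fat tissue also expresses many of these genes, and its markers differed between hearts. The 5 white adipocyte markers averaged 5.67 to 6.57 on the WT arrays, 5.36 to 5.91 in GlycoLo and 5.27 to 5.62 in GlycoHi, and 0 of 5 passed limma's test in any comparison (3 lower in GlycoHi against WT and 0 in the other comparisons at an unadjusted p under 0.05). The markers named here were picked after their values were seen. Adipoq, the adipocyte hormone adiponectin, read 5.63, 6.20 and 7.78 in WT, 6.32, 4.77 and 6.16 in GlycoLo, and 5.62, 4.46 and 4.60 in GlycoHi. The 4 brown adipocyte markers averaged 7.17 to 7.93, 7.06 to 7.44 and 7.02 to 7.04, and of these Cidea fell in GlycoLo. This average joins Cox8b, with group means of 13.00, 12.98 and 12.84, and Elovl3, with 3.77, 3.94 and 3.65. It is therefore not taken as a measure of brown fat content. Ucp1, the defining brown fat gene, read 3.53, 5.29 and 6.27 in WT, 4.21, 3.73 and 4.74 in GlycoLo, and 3.58, 3.57 and 3.39 in GlycoHi. Cfd, of the white adipocyte list, read 6.54, 6.98 and 8.56 in WT, 6.87, 5.74 and 6.68 in GlycoLo, and 6.51, 5.85 and 5.98 in GlycoHi. In Adipoq, Cfd, Retn and Ucp1 the WT hearts rose from replicate 1 to replicate 3, an order that the other markers did not share. Among the 9 hearts WT replicate 3 was highest in Adipoq, Cfd, Retn, Ucp1 and Cidea, and WT replicate 1 in Fabp4 and Cox8b. A GlycoLo heart was highest in Lep and Elovl3, but both read near the bottom of the scale (Lep group means 2.80, 2.95 and 2.84). Cidea differed between GlycoHi and GlycoLo by 0.40 ± 0.10 (adjusted p = 0.072, not passed).

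The heart muscle markers had lower means in 6 of 6 in GlycoHi (4 at an unadjusted p under 0.05, median -0.35) and in 5 of 6 in GlycoLo (2 at an unadjusted p under 0.05, median -0.07). Of these, Myh6, the fast myosin heavy chain, fell in GlycoHi by 0.70 ± 0.10 (adjusted p = 0.00444). Of the 4 skeletal muscle markers, Acta1, skeletal actin, was higher in GlycoHi than in GlycoLo by 0.64 ± 0.12 (adjusted p = 0.0252). The other 3 had lower means in GlycoHi than in GlycoLo, 2 of them at an unadjusted p under 0.05. The median over the 4 was -0.19. These 3, Myh1, Myh4 and Tnnt3, read near the bottom of the scale, with group means from 2.32 to 3.37. That limits what they and the median can show. Myh6 was also lower in GlycoHi than in GlycoLo (-0.47 ± 0.10, adjusted p = 0.0421). Only the removal of GlycoHi replicate 1 left the Myh6 call between the lines standing (highest adjusted p = 0.159). The Acta1 call went when any GlycoLo array or GlycoHi replicate 1 or 3 was dropped (highest adjusted p = 0.0949). Endothelial, fibroblast, macrophage, erythroid and hepatocyte markers held 0 genes that passed limma's test in the 3 comparisons (endothelial 2 lower in GlycoHi against WT and 1 between the lines, macrophage 1 lower in GlycoLo, erythroid 1 lower in either line and the others 0, at an unadjusted p under 0.05). The difference between the 3′ and 5′ actin probe sets, a sign of RNA integrity, was 0.92 to 1.00 in WT, 0.89 to 0.92 in GlycoLo and 0.82 to 0.97 in GlycoHi. The part of these values in the differences of the fatty acid genes was not tested.

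The authors' deposited table gave an adjusted p under 0.05 to 1 of the 37 members in GlycoLo against WT (Decr1, 0.0201), 1 in GlycoHi against WT (Phyh, 0.00288) and 5 between the lines. For the members that passed between the lines, the authors' deposited table lists adjusted p-values of 0.00102 for Decr1, 0.00844 for Slc25a20, 0.0159 for Phyh, 0.0397 for Pex11a and 0.0427 for Cpt2.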

How the data were processed

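Per the labels' protocols, heart RNA from 9 mice was extracted with Trizol, and labelled cRNA was read on Affymetrix mouse genome arrays. The values are log2 RMA values that the authors deposited, and RMA is named in the submitters' processing notes; background settings and probe annotation release are not stated there. A table with the authors' gene symbols, log2 differences, p-values and adjusted p-values was deposited as well, and its array values equal the first table's within 8.9e-16. It names 20662 of 45101 probe sets, each symbol once, so other probe sets of a member were not read. Of 37 members, 6 averaged under 5 on the log2 scale; no other filter was applied, and the 64 control probe sets were left out.

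One linear model of genotype was fitted to 9 arrays and 45037 probe sets with limma 3.58.1 in R 4.3.3, with empirical Bayes moderation and Benjamini-Hochberg adjustment over all probe sets. The submitters' notes name limma too. Errors after a difference are SE, and n = 3 per group. The number of arrays limits the precision. Values in every array are given for members called in any comparison, the smallest p per role and comparison, and Cd36, Cpt1a and Acsl1. Members and lists were chosen with earlier results of these data known. Same-numbered arrays' deviations from their group means correlated at -0.018 to 0.117, so the numbers were not taken to pair mice. Alternatives were another scaling, an offset, no dim probe sets, another prior, array weights, a replicate block, only the arrays compared, another threshold and each array left out. The model fit was tested on simulated data with planted shifts. Full recovery was required only of shifts larger than any member's difference, so that check does not cover the sizes reported. Promoters were searched and figures drawn with Python 3.11.15, pandas 2.3.3 and matplotlib 3.10.9.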

Additional observations from a re-analysis of the deposited data

How the results depend on the processing

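No difference among those named changed sign with a call, and the members' median differences stayed within the spread between replicates (SD 0.0519) under the alternatives run. In GlycoLo against WT the 1 called member became 0 with only the 6 arrays compared or with the replicate number as a block, 4 without dim probe sets, 5 with an offset of 50, 9 with a trended and robust prior and 2 at an adjusted p under 0.1. The members added without dim probe sets were Cpt2 (limma adjusted p = 0.0301), Slc25a20 (0.0384) and Ech1 (0.0391). In GlycoHi against WT the 1 became 2 without dim probe sets, 3 with the offset and 4 with the trended prior. Between the lines the 5 became 3 with the block and 8 with the trended prior, and in the F-test 3 with the block, 9 without dim probe sets or with the offset, and 14 with the trended prior. Leaving out each array in turn gave 0 to 1 members in GlycoLo, 1 in GlycoHi, 2 to 5 between the lines and 2 to 4 in the F-test. The replicate block is reported here only, since the numbers were not taken to pair the mice. The correlations between same-numbered arrays cannot show that there was no pairing. For 3 of 9 arrays the closest array of each other group had the same number. With only the 6 arrays compared, Decr1 in GlycoLo and Cpt2 and Pex11a between the lines lost their calls. With the block Decr1 in GlycoLo had an adjusted p = 0.053 by limma. The adjustment over the authors' table alone and the alternatives of the F-test were added after seeing the data. Over all probe sets the GlycoLo calls numbered 38, from 13 to 256 under the alternatives. In GlycoHi against WT 938 calls became 1752 without dim probe sets, 1620 with the offset and 1875 with the trended prior. Between the lines 771 became 627 with the block and 1547 with the trended prior. In the F-test 938 became 717 with the block, 1846 without dim probe sets, 1641 with the offset and 2127 with the trended prior. The members' counts thus moved in the same direction as those of the whole array in these fits. The cause of these moves was not tested, beyond fewer probe sets or arrays entering some fits. Probe sets near background, such as those of Acsl3, Acadl and Etfdh, limit what their genes can show.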
